A study of Mus musculus with 383 samples.

Results

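The cells described here are tumour cells of mouse skin squamous cell carcinoma that were sorted as Epcam-negative but still carried transcripts of the basal keratin Krt14, divided by whether they also carried Trp63, the gene of the transcription factor p63. Of 383 wells in the series, 310 held a single Epcam-negative cell. Of these 47 were left out, so that each cell had at least 100000 reads in genes, 2000 genes with a read, no more than 20% mitochondrial reads and no more than 50% spike-in reads. Levels are counts per 1000000 gene reads (CPM). Among kept cells with Krt14 at 50 CPM or more, Trp63 was at 50 CPM or more in 40, called p63-retaining, and below 50 CPM in 84, called p63-low. Both genes were therefore used to choose the cells, and their own levels are given only as a description. For reference, the values of the other Epcam-negative cells, with Krt14 below 50 CPM (Krt14-low), and of 62 kept Epcam-positive cells out of 70 are given where they help.

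All cells came from tumours of mice whose alleles include Lgr5CreER, p53fl/fl and Rosa26-YFP+/+, so every set shares a floxed p53 and a YFP reporter, recombined by a Cre that is driven from Lgr5, a gene of hair follicle stem cells. Living YFP-positive cells were sorted through a doublet gate. The labels name no animal, so the number of tumours is unknown, each set of cells was treated as 1 sample, and no test between sets was made. The name p63-retaining describes a level at sorting. Whether such a cell had kept Trp63 or regained it was not measured.

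p63 belongs to the p53 family of transcription factors and is the regulator on which the basal layer of stratified epithelia depends. It binds DNA as a tetramer at pairs of a short half-site, and its known targets in keratinocytes include the basal keratins Krt5 and Krt14, proteins that anchor basal cells to the basement membrane, desmosome components and growth factor receptors. In EMT, the epithelial to mesenchymal transition, such epithelial genes are given up and genes of mesenchymal cells such as vimentin and collagens are gained. Keratin 14 with little p63 is one of the combinations in which this can be looked at cell by cell.

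The promoters of a pair of known basal genes and of the most unequal differentiation gene are shown because the first 2 hold a p53-family half-site and the last an AP-1 site. Each runs 5′ to 3′ on the strand of the gene, from 250 bases before to 50 after the transcript start, from RefSeq on GRCm38.p6. Krt5 lies at chr15:101712856-101713155 on the minus strand, Col17a1 at chr19:47691993-47692292 on the minus strand and Dmkn at chr7:30763506-30763805 on the plus strand. Capitals mark the half-site in the first 2 and the AP-1 site in the last. None of the 3 windows held both.
Krt5: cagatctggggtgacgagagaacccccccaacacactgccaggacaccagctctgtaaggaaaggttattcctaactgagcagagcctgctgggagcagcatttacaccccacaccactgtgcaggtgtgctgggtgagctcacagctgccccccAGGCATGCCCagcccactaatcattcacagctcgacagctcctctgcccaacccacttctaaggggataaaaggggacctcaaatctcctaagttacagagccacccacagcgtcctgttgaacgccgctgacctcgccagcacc
Col17a1: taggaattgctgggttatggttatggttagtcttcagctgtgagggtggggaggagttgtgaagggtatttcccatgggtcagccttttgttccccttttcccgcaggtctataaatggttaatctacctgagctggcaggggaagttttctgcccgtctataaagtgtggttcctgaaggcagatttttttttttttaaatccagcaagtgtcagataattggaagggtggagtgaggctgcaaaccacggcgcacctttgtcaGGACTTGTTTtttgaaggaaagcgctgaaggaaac
Dmkn: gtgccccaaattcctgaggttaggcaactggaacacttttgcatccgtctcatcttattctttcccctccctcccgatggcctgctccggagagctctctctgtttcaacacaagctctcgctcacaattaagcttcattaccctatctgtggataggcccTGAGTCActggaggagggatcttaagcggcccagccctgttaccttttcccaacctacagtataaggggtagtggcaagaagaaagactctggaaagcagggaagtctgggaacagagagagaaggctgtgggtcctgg
The half-site searched was the p53-family consensus of 10 letters, which is its own reverse complement, and the AP-1 site was TGACTCA or TGAGTCA, so both strands were covered. Of 32851 promoters, 2745 (8.36%) held the half-site and 1709 (5.20%) the AP-1 site. Among the known p63 targets listed here, 13 genes had 19 promoters in the table, of which 2 held the half-site and 0 the AP-1 site. Among the 15 genes with the highest ratios, 8 had 11 promoters, 3 with the half-site and 3 with the AP-1 site, and these 3 were the start sites of Dmkn. Of these, the windows at chr7:30763506-30763805 and chr7:30763508-30763807 overlap and hold the same AP-1 site, which is thus counted more than once. Among the 15 lowest, 12 had 20 promoters, 1 with each. These are matches of letters in a short window and not measured sites.

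Depth was alike in both sets. The 40 p63-retaining cells had 105909 to 746671 gene reads with a median of 389416, and the 84 p63-low cells 110150 to 778070 with a median of 413390, summing to 14988578 and 33829854 reads. The median cell showed 6805 genes in p63-retaining and 7050 in p63-low cells, and mitochondrial genes took 5.69% and 4.94% of reads. Gene reads per spike-in read, a measure of RNA content, had medians of 166.9 in p63-retaining and 164.2 in p63-low cells. Cells of both sets lay in all 13 plate rows that held Epcam-negative cells, but 17 of 40 p63-retaining cells (42.5%) and 56 of 84 p63-low cells (66.7%) lay in plate columns 1 to 12. Some cells went against the Epcam-negative label in their transcripts: Epcam, Cdh1 or Cldn4, 3 genes of epithelial cell junctions, reached 50 CPM in 9 of 40 p63-retaining cells (22.5%, exact binomial 95% interval 10.8 to 38.5%) and in 3 of 84 p63-low cells (3.57%, 0.743 to 10.1%), against 61 of 62 Epcam-positive cells. Values without these cells are given where they move a result, and list counts also from a narrower comparison, chosen after seeing the data, of the 26 p63-retaining and 30 p63-low cells that had Krt14 at 1000 CPM or more and no such transcript. In that Krt14-high comparison Krt14 itself was still at 8135 CPM in p63-retaining and 3581 CPM in p63-low cells. Intervals of levels and ratios cover counting error of the summed reads only, and leave out the spread between cells and between animals. PCR copies of 1 molecule cannot be told from separate molecules here, so the counting error can be larger than shown. Intervals of shares of cells treat each cell as independent, although each set is 1 sample.

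Trp63 (ENSMUSG00000022510.14, chromosome 16, 25683763 to 25892102 on GRCm38) ran from 67.3 to 3031 CPM with a median of 183.7 CPM in p63-retaining cells. In p63-low cells 48 of 84 had no Trp63 read, and the highest stood at 49.6 CPM. Summed over cells, Trp63 was at 308.1 CPM in p63-retaining and 4.32 CPM in p63-low cells, against 1.66 CPM in Krt14-low and 259.1 CPM in Epcam-positive cells. At the boundary, the 3 cells just inside p63-retaining had 67.3, 68.7 and 74.6 CPM from 31, 17 and 31 reads, and the 3 just outside had 36.9, 44.4 and 49.6 CPM from 7, 16 and 21 reads. For Krt14 the cells just inside its limit had 50.9 and 52.3 CPM and those just outside 46.4 and 47.5 CPM.

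**Figure D1:**
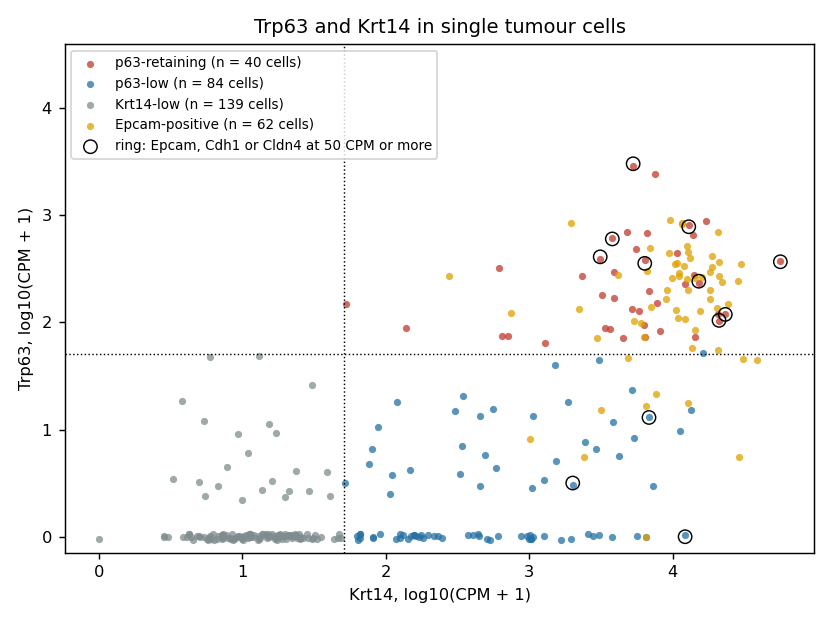
Krt14 (horizontal axis) and Trp63 (vertical axis) in each kept cell, both as log10 of CPM + 1, with dotted lines at 50 CPM and rings around Epcam-negative cells with a junction transcript. The 40 p63-retaining cells lie mostly at high Krt14, among the 62 Epcam-positive cells, and 48 of the 84 p63-low cells lie at 0 Trp63.

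Both Trp63 and Krt14 chose the members, so their levels are given as a description. Krt14, the partner of Krt5 in the filaments of basal keratinocytes, ran from 52.3 to 56264 CPM with a median of 6064 CPM in p63-retaining cells, and from 50.9 to 16154 CPM with a median of 471 CPM in p63-low cells. The ranges overlapped from 52.3 to 16154 CPM, and only p63-retaining cells lay above that. Summed levels were 9454 CPM in p63-retaining and 1613 CPM in p63-low cells, and Krt14 was at 1000 CPM or more in 35 of 40 and 33 of 84 cells. Among all kept Epcam-negative cells, Trp63 reached 50 CPM in 0 of the Krt14-low cells, which allows a share of up to 2.16% (3 cells of the total). It did so in 2 of 31 cells (6.45%, 0.791 to 21.4%) with Krt14 from 50 to 200 CPM and in 3 of 25 (12%, 2.55 to 31.2%) from 200 to 1000 CPM. At 1000 to 5000 CPM of Krt14 the share was 11 of 34 cells (32.4%, 17.4 to 50.5%), and at 5000 CPM or more 24 of 34 (70.6%, 52.5 to 84.9%). High Krt14 without p63 at this level did occur, in 10 of 34 cells of that class.

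**Figure D2:**
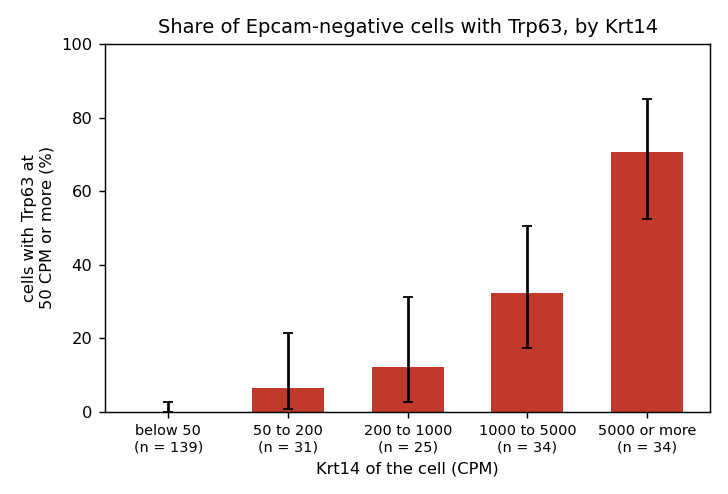
Share of Epcam-negative cells with Trp63 at 50 CPM or more (vertical axis, percent) in classes of Krt14 (horizontal axis, CPM). Bars show the share and lines the exact binomial 95% interval; the share is 0 below 50 CPM of Krt14 and 24 of 34 at 5000 CPM or more.

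Of the other p53 family members, Trp73, the gene of p73, was at 10 CPM or more only in the p63-retaining set, so it had to show a difference. It reached 50 CPM in 5 of 40 p63-retaining cells (12.5%, 4.19 to 26.8%) and in 1 of 84 p63-low cells (1.19%, 0.0301 to 6.46%), and in 0 Krt14-low and 8 of 62 Epcam-positive cells. The median cell had no Trp73 read in either set, and its summed levels were 18.01 CPM in p63-retaining and 0.916 CPM in p63-low cells. Trp53, the floxed tumour suppressor of the model, was at 27.2 CPM in p63-retaining and 19.1 CPM in p63-low cells, a log2 ratio of 0.49 (0.32 to 0.67), where ratios throughout are log2 of (CPM + 1) in p63-retaining over (CPM + 1) in p63-low cells. Reads from exons outside the floxed part still count toward Trp53, so its level does not check the deletion.

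Over all 9447 genes with at least 10 CPM in either set, 935 (9.9%) were 2-fold or more higher in p63-retaining cells and 720 (7.62%) were 2-fold or more lower, with a median ratio of 0.04. Without the cells with junction transcripts, 879 (9.35%) were higher and 724 (7.7%) lower. In the Krt14-high comparison 1208 of 9431 genes (12.8%) were higher and 829 (8.79%) lower, with a median of 0.09. In plate columns 1 to 12 and again in 13 to 24, 430 (4.55%) were higher and 371 (3.93%) lower, and 715 (7.57%) and 697 (7.38%) also without the cell of each set with most reads of the gene. These shares are the background for the counts below. A list member at 10 CPM or more only in the set where it is high had to show a difference, so for lists with such members the count over those measured in both sets is given apart.

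Of 23 known p63 targets, 19 were measured and 16 were 2-fold or more higher in p63-retaining cells, 0 lower, with a median of 1.78. Among the 15 at 10 CPM or more in both sets, 12 were higher, and without the cells with junction transcripts 14 of the 19 were. Krt5, the partner of Krt14 (chromosome 15, 101707070 to 101712898), ran from 0 to 10586 CPM with a median of 1899 CPM in p63-retaining cells, and from 0 to 5105 CPM with a median of 23.9 CPM in p63-low cells. The ranges overlap, but Krt5 was at 50 CPM or more in 35 of 40 p63-retaining and 31 of 84 p63-low cells, and in 1 Krt14-low cell and 62 of 62 Epcam-positive cells. Summed, it was at 2896 CPM in p63-retaining and 346 CPM in p63-low cells, a ratio of 3.06 (3.03 to 3.09). Col17a1, a collagen that spans the membrane in hemidesmosomes, had medians of 337 CPM in p63-retaining and 5.17 CPM in p63-low cells, with 0 CPM in some cells of both and highest values of 3124 and 1508 CPM. Its summed ratio was 2.86 (2.80 to 2.92). Perp, a desmosome-associated membrane protein that p63 and p53 both activate, had medians of 1425 CPM in p63-retaining and 250.6 CPM in p63-low cells, with a ratio of 2.06. In p63-low cells Perp was present, at 5 or more of 100000 thinned reads, in 61 of 84, against 39 of 40 p63-retaining cells.

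**Figure D3:**
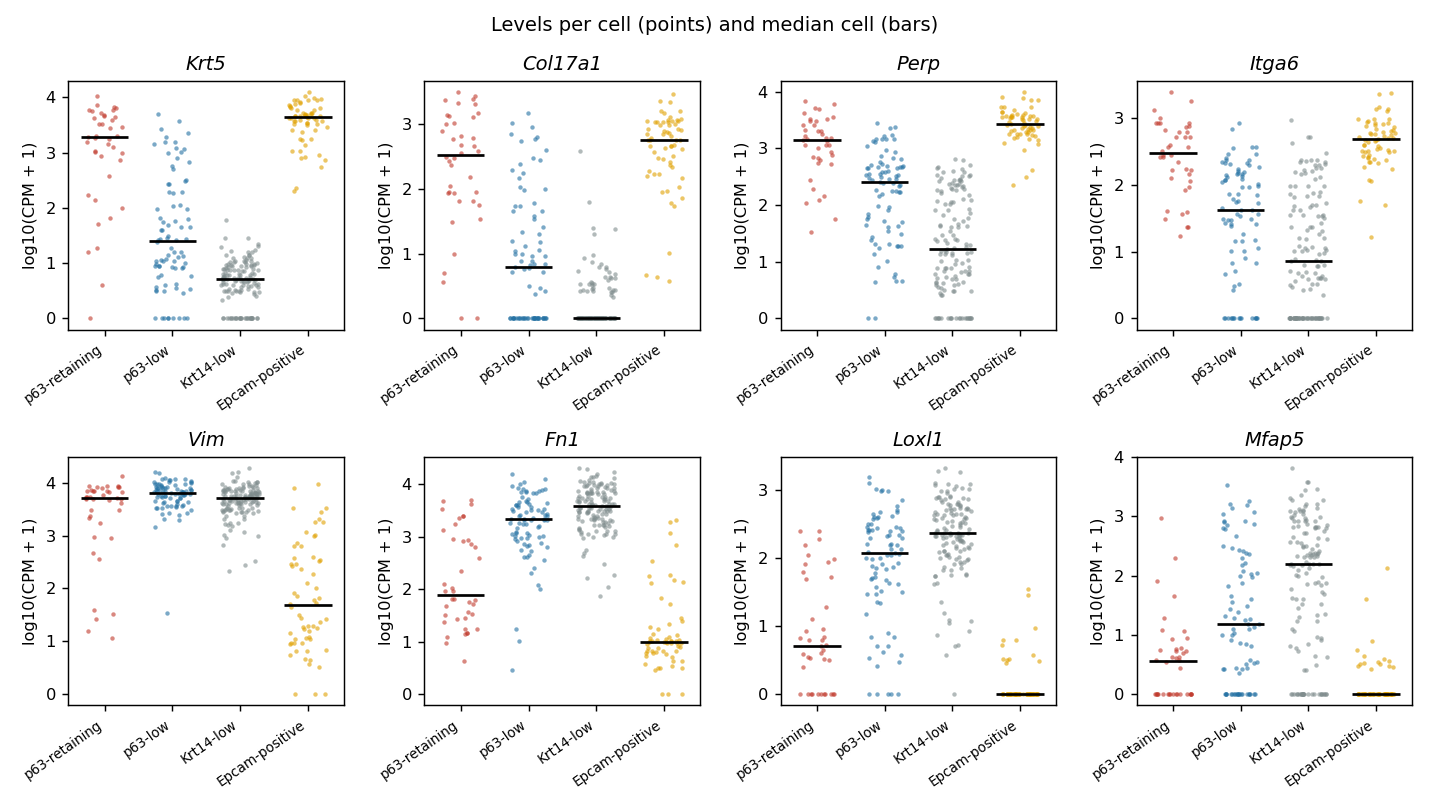
Levels of 8 genes in each cell, as log10 of CPM + 1 (vertical axes), in p63-retaining, p63-low, Krt14-low and Epcam-positive cells, with a bar at the median cell. Krt5, Col17a1, Perp and Itga6 are high in p63-retaining and Epcam-positive cells, and Fn1 and Loxl1 in p63-low and Krt14-low cells. Mfap5 is high in only a part of the p63-low cells. Vim is high in most cells of the 3 Epcam-negative sets and lower in most Epcam-positive cells.

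The receptor targets were also higher. Fgfr2, which receives keratinocyte growth factor, was at 83.4 CPM in p63-retaining and 26.01 CPM in p63-low cells, and Fgfr3 at 14.7 and 1.24 CPM in these sets. The Notch ligands Jag1 and Jag2 had ratios of 1.01 and 1.78. Fgfr3 and Jag2 reached 10 CPM only in p63-retaining cells, so they had to show a difference. In the Krt14-high comparison Fgfr2 stood at 0.63, Jag1 at 0.25 and Jag2 at 0.71, and Fgfr3 was under 10 CPM in both sets. Zfp750, a zinc finger factor that acts downstream of p63 in differentiation, had the highest ratio of the list, 4.25. It too reached 10 CPM only in p63-retaining cells. A single cell held 83.4% of its p63-retaining reads, and the ratio was 2.07 without the top cell of each set. The targets within 2-fold were Dst with a ratio of 0.41, Gata3 with 0.29 and Chuk, the kinase IKK-alpha, with -0.23. Dst encodes dystonin, whose epithelial form is a hemidesmosome plaque protein and which other cell types use as well.

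In the Krt14-high comparison the targets were closer together. Of 17 measured there, 5 were higher and 0 lower, with a median of 0.70. Krt5 had a ratio of 1.74, with 2889.5 CPM in p63-retaining and 867 CPM in p63-low cells, and Col17a1 one of 1.67. Perp stood at 1.05, Itgb4 at 0.59 and Dst at 0.07. The part of the Krt14 level in these differences was not tested.

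Part of the genes that anchor basal cells were higher in p63-retaining cells. All 13 measured members of the basal adhesion list were at 10 CPM or more in both sets, and 6 were 2-fold or more higher in p63-retaining cells, 0 lower, with a median of 0.51. With Krt14 high and no junction transcript 3 of the 13 were higher, 0 lower, with a median of 0.33. Among the 6 higher over all cells were Col17a1, both chains of the hemidesmosome integrin, Itga6 and Itgb4, and the laminin chains Lama3 and Lamb3. Itga6 ran from 16.1 to 2431 CPM with a median of 303.2 CPM in p63-retaining cells, and from 0 to 854 CPM with a median of 40.7 CPM in p63-low cells. Its summed ratio was 2.15 (2.09 to 2.21). Itgb4 had medians of 219.9 CPM in p63-retaining and 28.1 CPM in p63-low cells. Lama3 and Lamb3 had ratios of 2.92 and 2.52. With Krt14 high these ratios were 0.88 and 1.11, and Itga6 stood at 1.45. Other members stayed within 2-fold, the hemidesmosome plaque proteins Dst and Plec among them: the beta chain Itgb1 was at 867 CPM in p63-retaining and 1031 CPM in p63-low cells, and plectin (Plec) at 281.5 and 351 CPM.

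Basal and stress keratins were higher in p63-retaining cells, whereas the simple-epithelium keratins Krt8 and Krt18 were not. Of 9 measured keratins besides Krt14, 6 were 2-fold or more higher and 2 lower, with a median of 2.87. Among the 7 measured in both sets 5 were higher and 1 lower. Without the cells with junction transcripts 5 of the 9 were higher and 2 lower, with a median of 1.37, and of 7 measured in the Krt14-high comparison 3 were higher and 2 lower, with a median of 0.90. Krt6a, a keratin of wounded and hyperproliferative epidermis, had medians of 415 CPM in p63-retaining and 5.88 CPM in p63-low cells and a summed ratio of 3.69. Krt17, which appears with it, had a ratio of 2.87 with medians of 61.1 and 3.70 CPM. Reads of close relatives such as Krt6a and Krt6b can be split between them in counting. Krt15, of the hair follicle bulge, had a ratio of 2.98 that rested on few cells. It was present in 4 of 40 p63-retaining and 4 of 84 p63-low cells. Its ratio was -0.23 in the Krt14-high comparison, where it was under 10 CPM in both sets.

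Krt8 went the other way. This keratin of simple epithelia, which carcinomas can gain, was present in 3 of 40 p63-retaining cells and 24 of 84 p63-low cells, with highest values of 264.6 and 1694 CPM. Summed, it was at 15.1 CPM in p63-retaining and 151.1 CPM in p63-low cells, a ratio of -3.24 (-3.43 to -3.06), against 64.9 CPM in Krt14-low and 81.04 CPM in Epcam-positive cells. The ratio was -4.09 in the Krt14-high comparison, -4.08 without the top cell of each set, -2.32 within plate columns 1 to 12 and -6.01 within columns 13 to 24. Its partner Krt18 did not share the difference, with 59.4 CPM in p63-retaining and 75.9 CPM in p63-low cells. The differentiation keratin Krt10 was low in both, at 4.74 CPM in p63-retaining and 15.4 CPM in p63-low cells.

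Most measured junction genes were higher in p63-retaining cells. Of 22, 16 were measured and 14 were 2-fold or more higher in p63-retaining cells, 0 lower, with a median of 1.69, and 10 of the 12 measured in both sets were higher. Without the cells with junction transcripts, which this list's own genes define, 11 of the 16 were higher. Fewer were past 2-fold in the Krt14-high comparison, 4 of 12 with 0 lower and a median of 0.79. Dsp, the desmosome plaque protein desmoplakin, had medians of 480.3 CPM in p63-retaining and 8.21 CPM in p63-low cells and a ratio of 2.86 (2.80 to 2.91). The desmosome genes Pkp1, Pkp3 and Jup had ratios of 1.60, 2.06 and 1.55 in all cells. With Krt14 high, Dsp stood at 1.52 and these 3 genes at 0.42, 0.77 and 0.99. Tjp1, a scaffold of tight junctions that mesenchymal cells also express, was at 19.7 CPM in p63-retaining and 29.9 CPM in p63-low cells.

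Epcam, the adhesion molecule of the sort, was at 80.3 CPM in p63-retaining and 35.7 CPM in p63-low cells, a ratio of 1.15, but 23 of 40 p63-retaining and 66 of 84 p63-low cells had no Epcam read and 1 p63-low cell held 72.1% of that set's reads. The ratio was -0.47 without the cells with junction transcripts, in which Epcam had been used as a limit.

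The measured regulators of the epithelial state were higher in p63-retaining cells, but most were low and unevenly spread. Of 18, 14 were measured and 14 were 2-fold or more higher, with a median of 2.81. Only 4 of them were at 10 CPM or more in both sets, and these 4 were higher too, with a median of 1.75. Without the cells with junction transcripts 10 of the 14 were higher, with a median of 1.50. Of 8 measured in the Krt14-high comparison 3 were higher and 1 lower, with a median of 0.92. Among the 4 measured in both sets were Klf5, a transcription factor of stratified epithelia, at 329 CPM in p63-retaining and 115.6 CPM in p63-low cells, Tfap2a at 33.2 and 12.1 CPM, and the serine protease inhibitor Spint2 at 202.4 and 36.9 CPM in these sets. The splicing factors Esrp1 and Esrp2, which set epithelial isoforms, were present in 7 and 5 of 40 p63-retaining cells and in 2 and 1 of 84 p63-low cells. Ovol1, which represses mesenchymal genes, was at 42.4 CPM in p63-retaining and 0.118 CPM in p63-low cells but was present in 2 of 40 cells, 1 of which held 56.4% of the reads. Grhl2 and Esrp1 had ratios of 2.58 and -1.84 in the Krt14-high comparison. Each reached 10 CPM only in the set where it was high, so both had to show a difference. Grhl2 was present in 2 of 26 p63-retaining and 0 of 30 p63-low cells there, and Esrp1 in 1 and 2. Esrp2 stood at 1.91 there but was under 10 CPM in both sets.

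Differentiation genes were also unevenly spread. Of 7 measured of 13, 6 were 2-fold or more higher and 1 lower, with a median of 2.72, but 5 of the 7 reached 10 CPM only in the set where they were high, and the other 2 were both higher. Without the cells with junction transcripts 3 of the 7 were higher and 2 lower, with a median of 0.49. Of 4 measured in the Krt14-high comparison 2 were higher and 1 lower, with a median of 0.36. Dmkn, the dermokine of upper epidermal layers, had medians of 39.8 CPM in p63-retaining and 1.32 CPM in p63-low cells, highest values of 10775 and 428 CPM, and a summed ratio of 5.02. It was present in 20 of 40 p63-retaining and 9 of 84 p63-low cells. Its ratio was 4.48 without the top cell of each set and 1.88 in the Krt14-high comparison. Hair follicle lineage genes differed less, with 2 of 11 measured higher, 0 lower and a median of 0.42, and 2 higher and 3 lower without the cells with junction transcripts. Among the 7 measured in both sets 0 were past 2-fold, and of 9 in the Krt14-high comparison 0 were higher and 1 lower. Sox9 was at 451 CPM in p63-retaining and 274.4 CPM in p63-low cells, the stem cell gene Lgr5 at 17.2 and 15.7 CPM, and Lgr6 at 26.4 and 7.54 CPM.

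Matrix genes were lower in p63-retaining cells. Of 20, all were at 10 CPM or more in both sets, 12 were 2-fold or more lower and 0 higher, with a median of -1.11. This count did not shrink in the Krt14-high comparison, where 13 of 20 were lower and 0 higher with a median of -1.16, and 9 were lower without the cells with junction transcripts. Loxl1, which crosslinks elastin and collagen (chromosome 9, 58287738 to 58313186), ran from 0 to 254.97 CPM with a median of 4.15 CPM in p63-retaining cells, and from 0 to 1589 CPM with a median of 116.6 CPM in p63-low cells. It was present in 10 of 40 p63-retaining and 56 of 84 p63-low cells, with a summed ratio of -2.57 (-2.69 to -2.45). The related enzyme Lox had medians of 8.65 CPM in p63-retaining and 172.6 CPM in p63-low cells. Fibronectin, Fn1, had medians of 76.4 CPM in p63-retaining and 2151 CPM in p63-low cells, against 3888 CPM in Krt14-low and 8.63 CPM in Epcam-positive cells. The p63-low level of Fn1 was thus nearer to that of the Krt14-low cells, and the p63-retaining level lay between p63-low and Epcam-positive cells.

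Collagen and keratin transcripts were found in the same cells. The type I collagen gene Col1a1 was at 50 CPM or more in 28 of 40 p63-retaining cells (70.0%, 53.5 to 83.4%) and 80 of 84 p63-low cells (95.2%, 88.3 to 98.7%), against 3 of 62 Epcam-positive cells. Cells with both Col1a1 and Krt5 at 50 CPM or more made up 23 of 40 p63-retaining (57.5%, 40.9 to 72.96%) and 29 of 84 p63-low cells (34.5%, 24.5 to 45.7%), against 1 Krt14-low cell and 3 of 62 Epcam-positive cells. Sparc, a matrix glycoprotein, stayed within 2-fold, at 5117 CPM in p63-retaining and 8112 CPM in p63-low cells.

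Vimentin and all but 1 of the EMT transcription factors measured stayed within 2-fold. Vim was at 500 CPM or more in 33 of 40 p63-retaining cells (82.5%, 67.2 to 92.7%) and 83 of 84 p63-low cells (98.8%, 93.5 to 99.97%), with summed levels of 4956 and 6626 CPM in these sets, against 592 CPM in Epcam-positive cells. Of 7 EMT transcription factors, 1 was 2-fold or more higher and 0 lower, with a median of -0.05 (0.18 within plate columns 1 to 12 and -0.32 within those from 13 to 24). Of 6 measured in both sets 1 was higher, as was 1 of 6 in the Krt14-high comparison. Zeb1 was at 36.2 CPM in p63-retaining and 37.7 CPM in p63-low cells, Twist1 at 28.4 and 32.01 CPM, and Prrx1 at 389.8 and 334 CPM. Snai2, the member past 2-fold, was at 25.3 CPM in p63-retaining and 10.3 CPM in p63-low cells, with 53.3% of the p63-retaining reads in 1 cell and a ratio of -0.32 in plate columns 13 to 24. Of 12 cytoskeletal and surface genes of mesenchymal cells, 0 were higher and 4 lower, with a median of -0.70. Of the 8 at 10 CPM or more in both sets 1 was lower, Acta2, and of 10 in the Krt14-high comparison 2 were lower, with a median of -0.48. The smooth muscle actin gene Acta2 was at 1031 CPM in p63-retaining and 2219 CPM in p63-low cells, a ratio of -1.11. In the Krt14-high comparison the summed ratio turned to 0.19, with 1459.5 CPM in p63-retaining and 1277 CPM in p63-low cells. The median cell of Acta2 there was lower in p63-retaining cells, at 424.9 against 598.1 CPM, and the highest cells stood at 14974 and 6473 CPM. The other 3 lower genes, Fap, Cdh2 (N-cadherin) and Tagln, were under 10 CPM in p63-retaining cells.

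Of 3 surface markers used to grade the transition, Itgav, an integrin alpha chain known as CD51, was at 170.1 CPM in p63-retaining and 173.6 CPM in p63-low cells. Vcam1, known as CD106, was present in 6 of 40 p63-retaining and 35 of 84 p63-low cells, with summed levels of 62.2 and 166.9 CPM, a ratio of -1.41, and -2.89 in the Krt14-high comparison. Itgb3, known as CD61, was under 10 CPM in both, at 8.81 and 6.62 CPM.

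**Figure D4:**
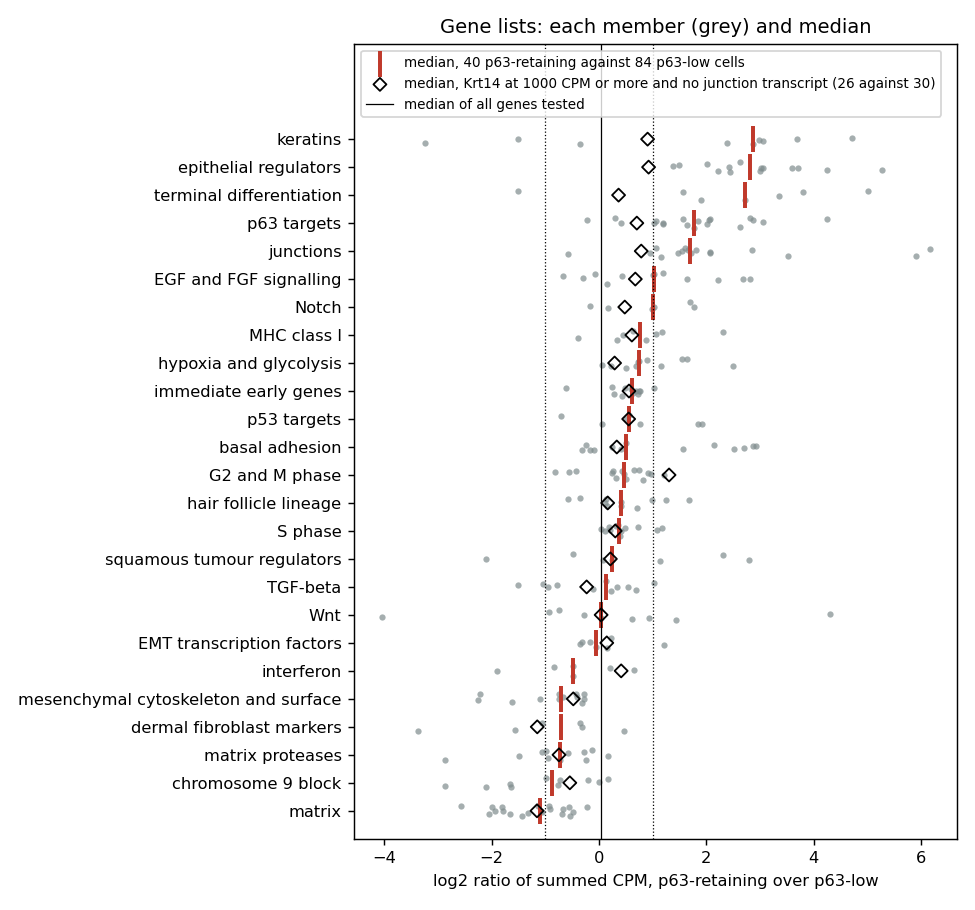
Log2 ratio of p63-retaining over p63-low cells (horizontal axis) for each measured member (grey points) of the gene lists with at least 5 measured members, with the median of the list over all cells (red bars) and in the Krt14-high comparison (diamonds). Dotted lines mark 2-fold; the keratin, regulator and target lists lie right of the median of all genes and the matrix list left of it, in both comparisons.

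Signalling genes differed in part. Of 12 measured genes of EGF and FGF signalling, 7 were 2-fold or more higher in p63-retaining cells and 0 lower, with a median of 1.02, and 3 of 11 were higher in the Krt14-high comparison. Among the 10 measured in both sets 5 were higher, and without the cells with junction transcripts 5 of the 12 were. The EGF receptor ligands Areg, Hbegf and Tgfa had ratios of 2.22, 1.03 and 2.69, and the receptor Egfr 1.20. With Krt14 high these ratios were 1.27, 0.82 and 2.04, and 0.68 for Egfr. Tgfa reached 10 CPM only in p63-retaining cells, so it had to show a difference. The ligand Ereg was at 305.1 CPM in p63-retaining and 319.8 CPM in p63-low cells, and Dusp6, a feedback inhibitor of ERK signalling, at 755 and 563 CPM. Of 6 Notch pathway genes, 3 were higher, the receptor Notch1 with a ratio of 1.70 and the ligands Jag1 and Jag2, while the target Hes1 was at 119.6 CPM in p63-retaining and 106.6 CPM in p63-low cells. Of the 4 Notch genes measured in both sets 2 were higher, and of 6 in the Krt14-high comparison 2. Of 9 measured Wnt genes, 2 were higher and 1 lower, with a median of 0.03. Among the 7 measured in both sets 1 was higher and 0 lower, and of 10 in the Krt14-high comparison 3 were higher and 3 lower. The secreted Wnt inhibitors Wif1 and Dkk2 each reached 10 CPM only in the set where they were high, so they had to show a difference. Wif1 was present in 7 of 40 p63-retaining and 1 of 84 p63-low cells, and Dkk2 in 1 of 40 and 17 of 84. Their summed ratios were 4.31 and -4.05, and 2.69 and -5.10 in the Krt14-high comparison. There Wif1 was present in 2 of 26 p63-retaining and 1 of 30 p63-low cells, with a highest p63-retaining value of 1146 CPM. Dkk2 was present there in 0 and 8 cells of these sets. Of 11 TGF-beta genes, 1 was higher and 2, the ligand Tgfb2 and the matricellular Ccn2, were lower, with a median of 0.14. With Krt14 high 0 of the 11 were higher and 3 lower, and the median was -0.23.

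Among p53 targets, 2 of 7 were 2-fold or more higher and 0 lower, with a median of 0.56, and 1 of 7 was higher in the Krt14-high comparison. Cdkn1a, the cell cycle inhibitor p21, had medians of 445 CPM in p63-retaining and 56.1 CPM in p63-low cells and was present in 36 of 40 and 43 of 84 cells. Its ratio was 1.85 (1.80 to 1.89), and 0.84 in the Krt14-high comparison. Trp53inp1 had a ratio of 1.92, and Mdm2 and Bax, also p53 targets, had 0.56 and 0.06.

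Proliferation genes were close in the whole sets. Mki67 or Top2a, genes of cycling cells, reached 50 CPM in 8 of 40 p63-retaining cells (20%, 9.05 to 35.6%) and 15 of 84 p63-low cells (17.9%, 10.4 to 27.7%). Of 15 genes of G2 and M phase, 1 was 2-fold or more higher (4 without the cells with junction transcripts) and 0 lower, with a median of 0.46, and of 12 genes of S phase 2 were higher and 0 lower, with a median of 0.37. In the Krt14-high comparison 10 of the 15 G2 and M phase genes were higher with a median of 1.30, and 2 of 12 S phase genes were. Those values come from 26 p63-retaining and 30 p63-low cells, and few of these cells carried the genes. Mki67 was present in 6 of the 26 p63-retaining and 4 of the 30 p63-low cells, Top2a in 5 and 4, and Aurka in 2 and 1. Within plate columns 1 to 12 the median of the G2 and M phase genes was -0.23, and within columns 13 to 24 it was 1.04.

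Of 11 genes of hypoxia and glycolysis, 4 were higher and 0 lower, with a median of 0.75, but 1 of 11 was higher without the cells with junction transcripts and 0 of 11 were past 2-fold in the Krt14-high comparison, with a median of 0.29. The glucose transporter Slc2a1 had medians of 266.9 CPM in p63-retaining and 84.2 CPM in p63-low cells, and ratios of 2.49 in all cells and 0.82 in that comparison. MHC class I genes had 3 of 8 higher and 0 lower, against 2 of the 7 measured in both sets and 1 of 8 in the Krt14-high comparison. Their median was 0.76, with 1.30 within plate columns 1 to 12 and -0.04 within those from 13 to 24. Psmb9, an immunoproteasome subunit, was at 28.96 CPM in p63-retaining and 5.03 CPM in p63-low cells. Immediate early genes, which tissue dissociation can induce, had 1 of 12 higher, 0 lower and a median of 0.61.

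Some genes of 1 stretch of chromosome 9 were lower in p63-retaining cells, with a wide spread among cells. Of 10 members of the block around Yap1, 4 were 2-fold or more lower and 0 higher, with a median of -0.88. Yap1, the effector of Hippo signalling, had medians of 39.97 CPM in p63-retaining and 86.1 CPM in p63-low cells but highest values of 2078 and 5892 CPM, and summed levels of 199.5 and 865 CPM, against 1330.2 CPM in Krt14-low cells. Cells at 500 CPM or more of Yap1 made up 4 of 40 p63-retaining and 29 of 84 p63-low cells. Its neighbours Birc2 and Birc3, inhibitors of apoptosis, had ratios of -1.66 and -1.64, and the matrix protease Mmp10 one of -2.87. Yap1, Birc2 and Birc3 stood at -0.99, -0.09 and -0.60 in the Krt14-high comparison, where 1 of the 10 was higher and 2 lower and the median was -0.54. The higher one was Tmem123, with a ratio of -0.77 in all cells and 1.91 there. Its median cell there was lower in p63-retaining cells, at 89.7 against 141.1 CPM. The highest cells of Tmem123 there stood at 54635 CPM in p63-retaining and 5554 CPM in p63-low cells. The median of the block was -0.19 with Krt14 at 1000 CPM or more, -0.59 within plate columns 1 to 12 and -2.16 within those from 13 to 24. In the cells with Yap1 below 500 CPM, a split chosen after seeing the data, the median of the p63 targets was 1.55 and that of the matrix genes -1.44. Of 11 matrix proteases and their inhibitors, 0 were higher and 3 lower, with a median of -0.73. Among the 10 measured in both sets 2 were lower, and of 11 in the Krt14-high comparison 4.

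Most markers of other cell types were under 10 CPM in both sets, apart from those that mesenchymal tumour cells share with fibroblasts. Of 12 immune markers 1 reached 10 CPM, S100a8, at 129.8 CPM in p63-retaining and 16.1 CPM in p63-low cells with 66.3% of the p63-retaining reads in 1 cell; keratinocytes under stress also express it. The summed level of the 12 ran from 0 to 2218 CPM per p63-retaining cell and from 0 to 492 CPM per p63-low cell, and 7 and 4 of them had no read in these sets. None of 8 endothelial and none of 6 erythroid markers reached 10 CPM. Of 10 dermal fibroblast markers 6 were measured, 3 of them 2-fold or more lower in p63-retaining cells and 0 higher, with a median of -0.71. Their summed level had a median of 970.1 CPM in p63-retaining and 2237 CPM in p63-low cells and ran up to 13468 and 27307 CPM. Of 7 melanocyte markers 1 reached 10 CPM, Mitf, at 10.7 CPM in p63-retaining and 5.41 CPM in p63-low cells. Of the 7 pericyte markers 3 were measured. Notch3 was at 12.9 CPM in p63-retaining and 6.03 CPM in p63-low cells, and Cspg4 at 38.8 CPM in both. The defining Rgs5 was at 0.467 CPM in p63-retaining and 19.8 CPM in p63-low cells, with 99.3% of the p63-low reads in 1 cell. The part of such cells in the p63-low values was not tested. Xist was read in 40 of 40 p63-retaining and 81 of 84 p63-low cells, and genes of the Y chromosome in 0 of 40 and 1 of 84.

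Beyond the lists, 1178 genes met the rule for genes higher in p63-retaining cells, which takes any ratio above 0 and sets no fold limit. The 15 with the highest ratios include Trp63, Dmkn, Aqp3, Krt90, Krt6a, Urah, Hcar2, Krt5, Krt42, Ces2g, Serpinb5, Lama3 and Krt17. Aqp3, the water and glycerol channel of basal epidermis, was present in 17 of 40 p63-retaining and 4 of 84 p63-low cells, with a ratio of 4.51. Serpinb5, the serpin maspin, had medians of 158.1 CPM in p63-retaining and 1.84 CPM in p63-low cells. Urah, an enzyme of urate breakdown, had medians of 207.4 CPM in p63-retaining and 0 CPM in p63-low cells and ratios of 3.18 and 2.68 in the 2 comparisons. Hcar2, a receptor for nicotinic acid, stood at 3.10 and 2.36. Of these, Lama3 was under 2-fold in the Krt14-high comparison, at 0.88.

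In the other direction 1253 genes met the rule, again with no fold limit. Their 15 lowest ratios were those of Mfap5, Igf2, Mgp, Tspan6, Cfap300, Hebp2, Loxl1, Mest, Fam149a, F2r, Glipr2, Pck2, Flnc, Fhl1 and Dcun1d5. Mfap5, a microfibril glycoprotein (chromosome 6, 122505845 to 122529290), was present in 3 of 40 p63-retaining and 32 of 84 p63-low cells, with medians of 2.60 and 14.3 CPM and highest values of 933 and 3335 CPM. Its summed ratio was -3.38 (-3.54 to -3.22). Igf2 and Mest are imprinted genes of embryonic growth. Igf2 had medians of 6.10 CPM in p63-retaining and 6.43 CPM in p63-low cells, so that its ratio of -2.87 comes from a part of the p63-low cells that reached 11076 CPM. Mest was present in 4 of 40 p63-retaining and 27 of 84 p63-low cells. Mgp, an inhibitor of calcification in cartilage and vessels, reached 7819 CPM in p63-retaining and 85033 CPM in p63-low cells, with medians of 8.98 and 12.3 CPM. Flnc, a filamin of muscle, and Fhl1, a LIM protein, had ratios of -2.24 and -2.21, and -2.47 and -0.53 in the Krt14-high comparison. Cfap300 and Dcun1d5 lie on chromosome 9 and stood at -0.68 and 0.27 there, so that the direction of Dcun1d5 turned in the summed reads. The median cell of Dcun1d5 there was at 104.1 CPM in p63-retaining and 118.7 CPM in p63-low cells, and the highest cells at 6876 and 4128 CPM.

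**Figure D5:**
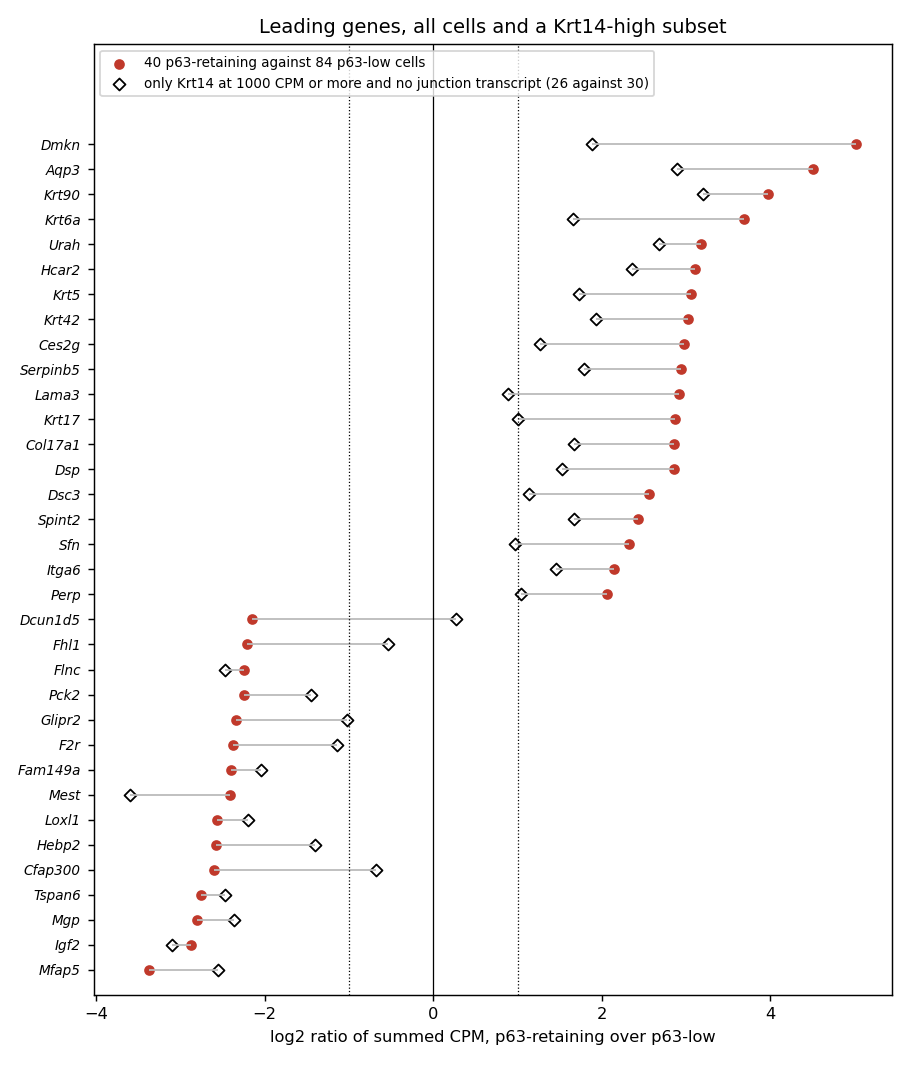
Log2 ratio of p63-retaining over p63-low cells (horizontal axis) for the leading and the most Trp63-like genes over all cells (red points, 40 against 84 cells) and in the Krt14-high comparison (diamonds, 26 against 30 cells). Grey lines join both values of a gene and dotted lines mark 2-fold; of the genes shown, Dcun1d5 changes direction.

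Genes were also ranked by how closely their level followed Trp63 over the p63-retaining and p63-low cells together. The cells were split on Trp63 and chosen on Krt14, so this ranking restates the split and supports none of the lists. Over 5375 genes present in at least 20% of the cells, the highest Spearman correlations with Trp63 were 0.68 for Krt5, 0.66 for Col17a1, 0.65 for Dsp, 0.64 for Urah, 0.61 for the desmosomal cadherin Dsc3 and 0.61 for Krt14. They were 0.60 for Spint2, 0.60 for Sfn (14-3-3 sigma), 0.59 for Perp and 0.58 for Itga6. The lowest were -0.51 for Loxl1, -0.47 for the actin-binding Cald1, -0.45 for Flnc, -0.44 for Fhl1 and -0.43 for Fn1. These describe cells of 1 sort that share a plate and a sequencing lane, as the labels give them. Within the 40 p63-retaining cells the correlations of all these genes were nearer 0. For the 10 highest they ran from 0.15 (Spint2) to 0.42 (Itga6), and for the 5 lowest from -0.12 (Flnc) to -0.40 (Loxl1). Over the 56 cells of the Krt14-high comparison they ran from 0.41 (Dsc3) to 0.60 (Krt5) and from -0.30 (Fhl1) to -0.48 (Flnc).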

How the data were processed

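The deposited values are raw read counts per gene and spike-in in each of 383 wells, which per the labels hold 1 Epcam-negative (310 wells) or Epcam-positive cell (70 wells), no cell (2 wells) or 50 cells (1 well), and the authors applied no normalization to them, as whole numbers with unequal totals show. Per the submitters' processing notes, cutadapt 1.13, STAR 2.5.2b, HTSeq 0.6.0 and the build GRCm38 were used, and per the labels' protocols libraries came from full-length cDNA (Smart-seq2, 24 cycles of amplification) read once over 50 bases. Neither annotation release nor strand setting is given in the sources used here. Of 49585 gene identifiers 49326 received a symbol from GENCODE M21. Spike-ins (92) stayed out of gene totals. No wells held identical counts.

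The filter kept 263 Epcam-negative cells, 124 with Krt14 at 50 CPM or more and 139 below. Reads were summed over the cells of a set and scaled to CPM. Ratios are log2 of CPM + 1, over genes with at least 10 CPM in either set, and a gene was called at 2-fold. Since each set is 1 sample, no p-value was computed. Intervals are exact 95% intervals (Poisson for CPM, conditional binomial for ratios, Clopper-Pearson for shares of cells). A gene was present in a cell at 5 or more of 100000 reads drawn at random. The ratio code was checked on simulated counts. Calculations used Python 3.11.15, numpy 2.4.6, pandas 2.3.3 and scipy 1.17.1, with edgeR 4.0.16 only for TMM factors in 1 alternative.

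The members and the 33 gene lists were chosen with earlier results of these data known. Always named were Trp63, Krt14, Krt5, Epcam, Vim, Trp53, Itgav, Itgb3 and Vcam1. From each list the rule takes the 3 measured members of largest absolute ratio, plus every member 2-fold or more against its list's median, and other members were named for context after their values were seen. Beyond the lists it takes the 15 highest and 15 lowest ratios among genes with 50 CPM in the higher set, present in 30% of its cells, with 1 direction in plate columns 1 to 12, in columns 13 to 24 and without the top cell of each set, leaving out predicted, mitochondrial and ribosomal protein genes. Genes most like Trp63 are the 10 with the highest Spearman correlation. A single list gene, Ca9, was not matched to a symbol. Some genes that the rule names, and 1 allele that all the mice carry, are not reported here; the counts over lists and ranks include those genes. Wells were filled by a sorter with a doublet gate, and no doublet caller was run.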

Additional observations from a re-analysis of the deposited data

Results flagged for a closer look

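Reads of both marker genes were found in wells outside the comparison. In the Epcam-positive well set up with 0 cells, Trp63 was at 241.8 CPM from 24 reads and Krt14 at 9029 CPM from 896 reads, of 99241 gene reads in all, with 7.66% spike-in reads. Epcam was at 695 CPM and Krt5 at 3738 CPM there, so the transcripts of this well go against its label of 0 cells, and whether it held a cell was not tested. In the Epcam-negative well set up with 0 cells, of 4018 gene reads, Trp63 had 0 reads, which allows up to 918.1 CPM, and Krt14 had 4. In the Epcam-negative well set up with 50 cells, with 154897 gene reads, Trp63 was at 38.7 CPM from 6 reads (exact Poisson 95% interval 14.2 to 84.3) and Krt14 at 1595 CPM. Krt5 was at 478 CPM and Vim at 6650 CPM in that well, and Epcam had 0 reads, which allows up to 23.8 CPM.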

How the results depend on the processing

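The number of genes 2-fold or more higher in p63-retaining cells was 935 and the number lower 720. They were 484 and 318 with a pseudocount of 10 CPM, 1494 and 1452 in plate columns 13 to 24 (23 p63-retaining and 28 p63-low cells), and 1830 and 1928 with genes from 1 CPM. Under the other 14 settings both counts stayed within 1.5 times. The p63-target median of 1.78 was 2.05 with the Trp63 limit at 20 CPM, 2.35 against p63-low cells with 0 Trp63 reads, 1.37 with a pseudocount of 10 CPM, 0.83 with Krt14 at 1000 CPM or more, 1.53 in plate columns 13 to 24, 1.92 without the top cell of each gene, and 0.70 with Krt14 at 1000 CPM or more and no junction transcript. The matrix median of -1.11 was -0.91 under stricter cell filters, -1.02 and -1.68 with the Trp63 limit at 20 and 100 CPM, -0.79 against cells with 0 Trp63 reads and -1.34 as a mean of cell CPM. It was -0.86 without cells with junction transcripts, -1.45 with Krt14 at 1000 CPM or more, -1.16 with both of these, -1.15 with TMM, -1.31 after thinning, -1.23 without the top cell and -1.44 with Yap1 below 500 CPM. The last 2 subsets, by Krt14 together with junction transcripts and by Yap1, were added after seeing the data.

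Of 96 named genes past 2-fold, 89 to 96 kept their direction and 64 to 96 were still past 2-fold under each setting, fewest in the Krt14-high comparison. Among the genes that the rule names, directions turned for these ratios. Without cells with junction transcripts Epcam was at -0.47 and Sprr1b at -0.33. With Krt14 at 1000 CPM or more Epcam was at -0.044, Tap1 at -0.0045 and Rgs5 at 0.40. In the Krt14-high comparison Epcam was at -1.25, Sprr1b at -0.87, Ndrg1 at -0.068, Pdk1 at -0.21, Tap1 at -0.13, Rgs5 at 0.44 and Dcun1d5 at 0.27. Epcam, Sprr1b and Rgs5 were under 10 CPM in both sets there. Epcam had also been used as a limit to leave out cells with junction transcripts, so its values without those cells follow from that choice. In plate columns 1 to 12 Cldn4 was at -1.76 and Rgs5 at 0.55. In columns 13 to 24 Snai2 was at -0.32, Mcm3 at -0.88, Pdk1 at -0.13, Tap1 at -0.11, Mmp10 at 0.13 and Mmp9 at 0.50. Mcm3 was at -0.27 without the top cell, and Rgs5 at 0.40 under stricter cell filters and 0.42 with Yap1 below 500 CPM. Of the other genes printed, Acta2 at 0.19, Krt15 at -0.23 and Esrp1 at -1.84 turned in the Krt14-high comparison, and Esrp1 at -0.64 without cells with junction transcripts. Krt15 was under 10 CPM in both sets of the Krt14-high comparison. For Acta2 and Dcun1d5 the median cell there was lower in p63-retaining than in p63-low cells. The cause was not tested.

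No paired analysis was possible because the labels number no replicates and no result comes from a test. Each set is 1 sample, so the spread between animals is unknown. Whether wells left out would change the shares was not tested: of 47 Epcam-negative wells that did not pass, 31 had Krt14 at 50 CPM or more and 6 of these Trp63 as well. At 100000 reads a level of 50 CPM is 5 reads, and Trp63 below that is not counted as retained.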
